A study of Mus musculus with 8 samples.

Results

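The Krüppel-like factors (KLFs) are transcription factors of the C2H2 zinc-finger class, and 10 of their genes, Klf2, Klf4, Klf6, Klf7, Klf9, Klf10, Klf11, Klf13, Klf15 and Klf16, were followed here out of 54532 genes in a count table. They were picked by name, with the outcome of the comparison below already known, so their group differences are given as a description. All 10 were annotated as zf-C2H2 in the deposited table, which holds 576 such genes, and all 10 passed the filter on low counts. RNA was sequenced from the medial prefrontal cortex (mPFC) of adult male C57BL/6 mice. The labels give the time of sampling as 1 h after the end of a conditioned place preference (CPP) test for methamphetamine. CPP measures drug memory as the time spent in the chamber once paired with the drug. The retrieval group held 4 libraries and the non-retrieval group held 4 libraries, and each library was a pool of 2 to 3 mice. The labels name no genotype, and what was done with the non-retrieval mice in place of retrieval is not described in them. Whether those mice were tested, and when they were sampled relative to a test, is therefore not known here.

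KLF proteins bind GC-rich and CACCC-containing DNA through zinc fingers at their C-terminal end, and differ in their N-terminal parts, which recruit activators or repressors. Several respond quickly to outside signals: Klf2 and Klf4 to blood flow in endothelium, Klf10 and Klf11 to transforming growth factor beta (TGF-beta), Klf9 to glucocorticoid and thyroid hormones, and Klf15 to glucocorticoids. In neurons, family members are known for their opposed effects on neurite and axon growth, which Klf6 and Klf7 promote and Klf4 and Klf9 restrain.

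Library totals ran from 25013503 to 29547978 counts, and 23474 to 24671 genes had at least 1 count. All 8 cortical excitatory neuron markers and all 7 interneuron markers on the lists passed the filter on low counts. In edgeR, 1 of the interneuron markers was called lower, as it also was in DESeq2 and limma-voom. Its edgeR call was lost in 5 of the 8 fits that left out 1 library. No excitatory marker was called in edgeR (2 at an unadjusted p under 0.05, 1 called higher by limma-voom, none by DESeq2). Of the other cell type markers, 1 of 8 mural, 1 of 8 meningeal fibroblast and 2 of 8 oligodendrocyte precursor genes were called higher, and none of 10 microglial genes was called (1 at an unadjusted p under 0.05; none in DESeq2 or limma-voom). The mural call was lost with any 1 of the 8 libraries left out, and the fibroblast call and 1 of the precursor calls in 5 of the 8 such fits each. Summed oligodendrocyte markers ran from 4227 to 6140 CPM (read counts scaled to library size with TMM factors) in retrieval and from 3482 to 4119 CPM in non-retrieval. All 13 markers had a positive log2 fold change, and 12 had an unadjusted edgeR p under 0.05. Called higher were 7 in edgeR, 8 in DESeq2 and 12 in limma-voom, where 3.67%, 4.98% and 6.63% of all tested genes were called higher. Retrieval replicate 2 stood apart in striatal projection neuron markers, with a mean log2 CPM of 4.95, against 3.88 to 4.19 in the other 7 libraries. In bulk tissue, fewer cells of a type and less RNA per cell cannot be told apart.

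The 250 bases upstream of the annotated start are shown for Klf2, Klf4, Klf13 and Klf15, because these 4 were past the test threshold in the comparison below and have an entry in the RefSeq promoter table (GRCm38.p6), 5′ to 3′ on the gene's strand. Starts are those of RefSeq, and positions are counted from them. The stretch shown for Klf2 runs past 72319033, where the counted gene model of Klf2 starts. Capitals mark TGACG, the core of the cAMP response element, on either strand, and, in Klf2, a MEF2 site.
Klf2, chr8:72318812-72319061, plus strand: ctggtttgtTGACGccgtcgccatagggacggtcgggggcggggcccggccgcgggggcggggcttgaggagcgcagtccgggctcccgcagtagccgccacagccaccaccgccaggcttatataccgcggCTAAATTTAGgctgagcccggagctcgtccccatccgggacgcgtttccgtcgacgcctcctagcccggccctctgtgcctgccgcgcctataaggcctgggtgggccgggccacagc
Klf4, chr4:55532476-55532725, minus strand: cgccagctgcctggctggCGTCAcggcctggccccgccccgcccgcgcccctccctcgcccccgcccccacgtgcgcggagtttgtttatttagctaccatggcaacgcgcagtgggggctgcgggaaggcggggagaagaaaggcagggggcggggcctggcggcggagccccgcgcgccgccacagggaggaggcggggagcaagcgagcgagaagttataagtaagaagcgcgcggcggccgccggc
Klf13, chr7:63938916-63939165, minus strand: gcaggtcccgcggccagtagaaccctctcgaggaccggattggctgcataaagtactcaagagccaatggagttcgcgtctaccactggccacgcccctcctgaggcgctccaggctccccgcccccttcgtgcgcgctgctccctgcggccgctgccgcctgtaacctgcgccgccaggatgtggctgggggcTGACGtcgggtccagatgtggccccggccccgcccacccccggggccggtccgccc
Klf15, chr6:90462326-90462575, plus strand: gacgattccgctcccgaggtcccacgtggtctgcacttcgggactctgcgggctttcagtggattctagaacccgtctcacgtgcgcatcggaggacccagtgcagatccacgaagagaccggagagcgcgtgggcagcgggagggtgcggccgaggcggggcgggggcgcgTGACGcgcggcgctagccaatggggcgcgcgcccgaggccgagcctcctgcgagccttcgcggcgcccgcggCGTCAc
TGACG or its reverse complement was found in the 300-base promoter entries (the 250 bases shown plus 50 past the start) of Klf2, Klf4, Klf9, Klf13 and Klf15, which is 5 of the 8 members with an entry, against 20.8% of 32851 entries. Klf9 carries it without being past the threshold, and Klf6, Klf7 and Klf11 lack it. The full element TGACGTCA, which contains TGACG, was in none of the 8 and in 1.79% of entries. The MEF2 site, a sequence bound by the MEF2 factors, was in Klf2 with its first base at -118 and in 3.19% of entries. The GC box, GGGCGG, which SP and KLF proteins can bind, was in 7 of the 8 (every one with an entry but Klf9) and in 35.7% of entries, and CACCC in 5 and in 57.5%. The E-box CACGTG was in Klf4, Klf6, Klf11 and Klf15, against 7.15% of entries, and the CCAAT box in Klf6, Klf9, Klf11, Klf13 and Klf15, against 37.4%. The TATA box TATAAA (13.6% of entries), the CArG box bound by SRF (1.63%) and the palindromic glucocorticoid response element (0.00913%) were in none of the 8. Both strands were searched, and a match is a string of letters in this window. The 250 upstream bases of the 8 members held 59.2% (Klf7) to 76.8% (Klf11) GC. The shares over all entries were not matched for base composition, so nothing is read from the differences.

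Per length, the members spanned a wide range of levels in the mPFC. Klf9 stood highest, at 62.3 ± 3.94 RPKM (CPM divided by the length of the gene model in kilobases) in retrieval and 57.6 ± 1.68 RPKM in non-retrieval (SD, n = 4 each). Klf13 followed at 36.5 ± 1.79 RPKM in retrieval and 30.2 ± 2.05 RPKM in non-retrieval, and Klf16 at 25.1 ± 1.43 RPKM in retrieval and 21.8 ± 1.67 RPKM in non-retrieval (SD, n = 4 each). These 3 genes ranked 3, 7 and 9 by mean RPKM among the 467 tested zf-C2H2 genes, whose median was 2.23 RPKM. Klf9 and Klf13 together made up 64.2% to 67.7% of the members' summed CPM in each library.

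The ranges of neighbouring genes over the 8 libraries did not overlap between Klf9, Klf13, Klf16 and Klf6, nor between Klf2 and Klf7. Neighbours overlapped within the run of Klf6, Klf10, Klf15 and Klf2, and within the run of Klf7, Klf4 and Klf11. The order differed between groups: Klf10 was in place 4 and Klf6 in place 5 in retrieval (14.4 ± 0.561 and 10.2 ± 0.641 RPKM), while Klf10 was in place 5 and Klf6 in place 4 in non-retrieval (7.84 ± 0.88 and 12.2 ± 1.15 RPKM; SD, n = 4 each). Klf4 was in place 8 in retrieval, at 3.74 ± 0.52 RPKM, and last in non-retrieval, at 1.19 ± 0.14 RPKM (SD, n = 4 each). Klf11 was last in retrieval, at 1.57 ± 0.0804 RPKM, and in place 9 in non-retrieval, at 1.95 ± 0.185 RPKM (SD, n = 4 each).

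**Figure D1:**
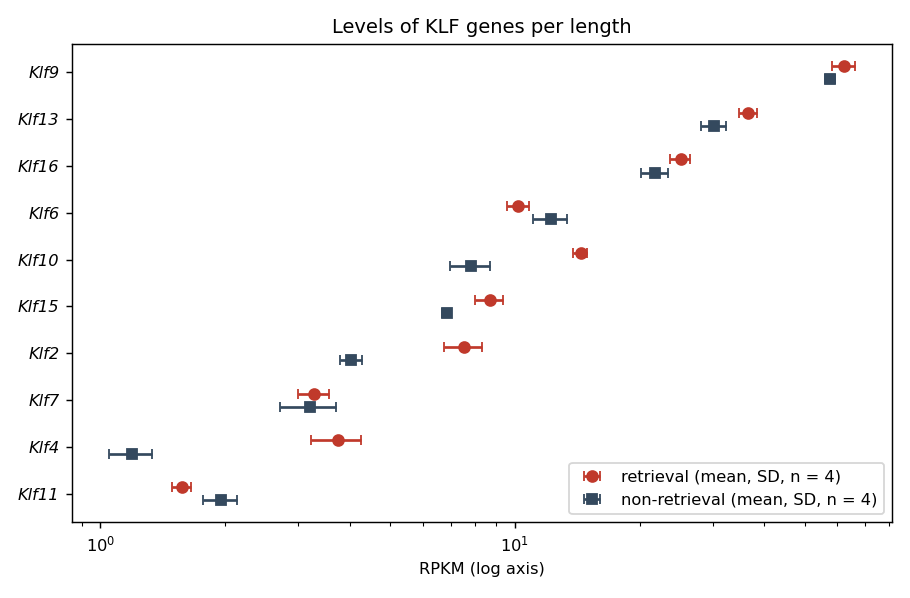
Level of each KLF gene per length (RPKM, log axis), ordered by the mean over all libraries, with retrieval as circles and non-retrieval as squares (mean and SD, n = 4 each). Klf9 is highest in both groups, and the retrieval and non-retrieval points lie farthest apart for Klf4, at 3.74 and 1.19 RPKM.

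Set against non-retrieval, 5 of the 10 members were higher in retrieval at an adjusted p under 0.05 in edgeR's quasi-likelihood test, namely Klf2, Klf4, Klf10, Klf13 and Klf15, against 3.67% of 16745 tested genes called higher (4.57% in either direction). Among tested zf-C2H2 genes, 6.21% were called in either direction. None of the members was called lower in edgeR, where 0.902% of tested genes were, although 2 were lower at an unadjusted p under 0.05. DESeq2 called 5 members higher and 1 lower, where 4.98% of its genes were higher and 1.41% lower (6.4% in either direction). Limma-voom called 6 members higher and 1 lower, where 6.63% of genes were higher and 3.04% lower (9.67% in either direction). The groups did not overlap for 5 members higher in retrieval (6.59% of tested genes) and 2 lower (4.53%). The median log2 fold change, retrieval over non-retrieval, was 0.24 over the 10 members, 0.01 over tested zf-C2H2 genes and -0.009 over all tested genes. Because the members were named with this comparison known, nothing is read from these counts.

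Klf2 and Klf4, the pair best known from vascular endothelium and, for Klf4, from reprogramming to pluripotency, were among the lower members by CPM and carried the widest group differences together with Klf10. Klf4 (ENSMUSG00000003032; GRCm38 chromosome 4, 55527143 to 55532466, minus strand) had 9.42, 12.2, 10.9 and 13.1 CPM in the retrieval libraries, against 4.01, 3.62, 3.03 and 3.84 CPM in the non-retrieval libraries. Every retrieval library lay far above every non-retrieval library. Its log2 fold change was 1.65 (SE 0.13), a fold of 3.14, and it ranked 4 among tested zf-C2H2 genes by that measure. These values rest on 280 to 361 reads per library in retrieval and 85 to 114 reads in non-retrieval. Read counting alone gives a relative error of 5.61% in retrieval and 9.96% in non-retrieval, and the observed coefficient of variation was 13.9% in retrieval and 11.8% in non-retrieval.

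Klf2 (ENSMUSG00000055148; chromosome 8, 72319033 to 72321656, plus strand) had 11.7, 14.5, 14.4 and 15.0 CPM in the retrieval libraries, against 7.01, 7.80, 7.84 and 7.10 CPM in the non-retrieval libraries. Retrieval replicate 1 was the lowest of its group, yet above every non-retrieval library. The log2 fold change was 0.90 (SE 0.10), a fold of 1.87. Klf2 and Klf4 are strongly expressed by endothelial cells, so the endothelial markers are set beside them. Summed over all 15 markers, these ran from 429 to 533 CPM in retrieval and from 434 to 463 CPM in non-retrieval, with a median log2 fold change of 0.03, and 1 of the 15, the glucose transporter gene Slc2a1, rose (0.53, SE 0.08; edgeR adjusted p = 0.000774). With the mean of the endothelial markers as a covariate the log2 fold change was 1.59 for Klf4 and 0.84 for Klf2.

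**Figure D2:**
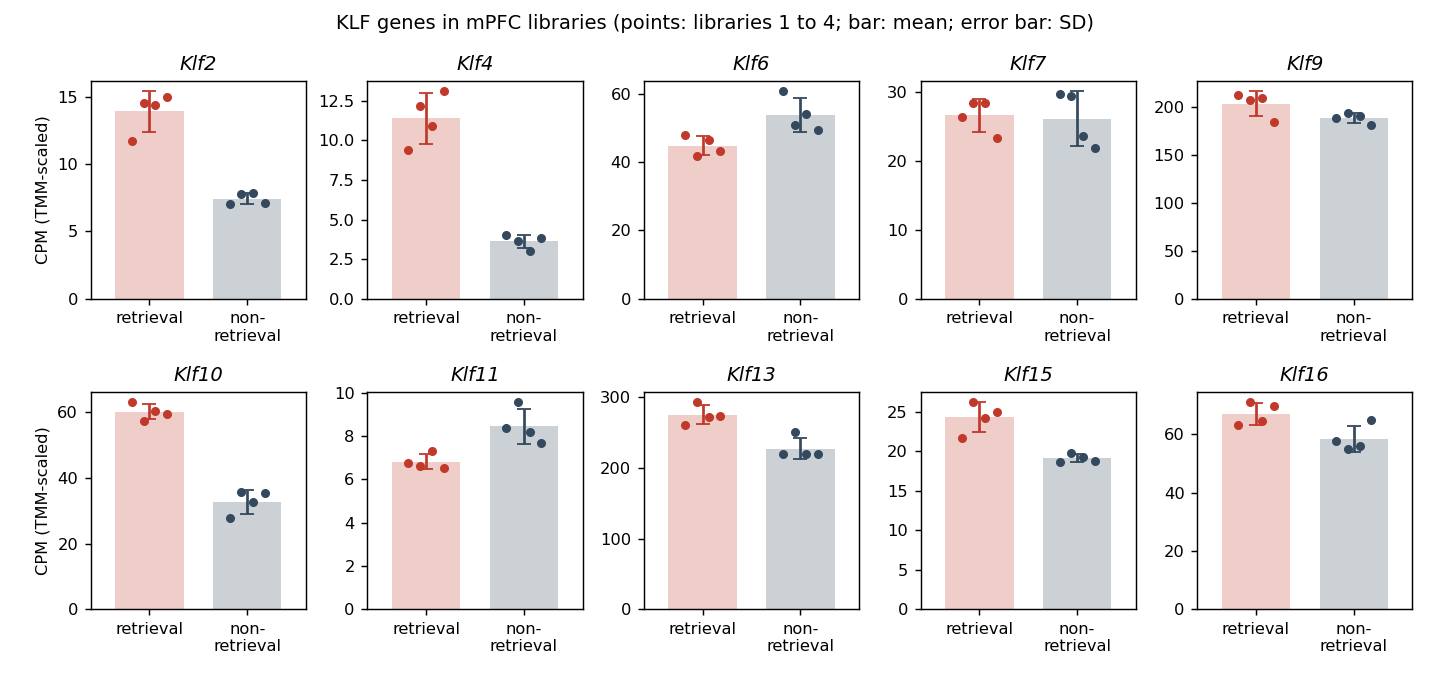
CPM of each KLF gene in the 4 retrieval and 4 non-retrieval libraries (points), with the group mean (bar) and SD (error bar). The groups are fully apart for Klf2, Klf4, Klf10, Klf13 and Klf15, higher in retrieval, and for Klf6 and Klf11, lower in retrieval.

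Klf10 and Klf11 are the TGF-beta-inducible early genes, close relatives that repress transcription through the SIN3A corepressor, and Klf10 alone of the pair passed the threshold. Klf10 (ENSMUSG00000037465; chromosome 15, 38291463 to 38300706, minus strand) had 63.0, 57.4, 60.4 and 59.4 CPM in the retrieval libraries, against 27.7, 35.6, 32.5 and 35.3 CPM in the non-retrieval libraries. The retrieval libraries were tight, with a coefficient of variation of 3.90%, and all lay above non-retrieval. The log2 fold change of Klf10 was 0.87 (SE 0.08), a fold of 1.83. Klf11 (ENSMUSG00000020653; chromosome 12, 24651274 to 24662789, plus strand) had 6.77, 6.60, 7.31 and 6.55 CPM in the retrieval libraries, against 8.38, 9.57, 8.20 and 7.67 CPM in the non-retrieval libraries. All 4 retrieval libraries lay below non-retrieval, by a margin that was small between retrieval replicate 3 and non-retrieval replicate 4. Its log2 fold change was -0.31 (SE 0.10), and it was not past the threshold in edgeR, DESeq2 or limma-voom. With 181 to 201 reads per retrieval library, counting error (7.26%) exceeded the observed spread between retrieval libraries (5.13%).

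Klf6 and Klf7 promote axon growth, and neither passed the threshold in edgeR. Klf6 (ENSMUSG00000000078; chromosome 13, 5861482 to 5870394, plus strand) had 47.8, 41.8, 46.5 and 43.2 CPM in the retrieval libraries, against 60.7, 50.8, 54.2 and 49.3 CPM in the non-retrieval libraries. The groups did not overlap, though retrieval replicate 1 and non-retrieval replicate 4 were close. The log2 fold change of Klf6 was -0.26 (SE 0.08), short of the threshold in edgeR and past it, lower, in DESeq2 and limma-voom. Klf7 (ENSMUSG00000025959; chromosome 1, 64029447 to 64122282, minus strand) had 26.4, 28.4, 28.5 and 23.4 CPM in the retrieval libraries, against 29.7, 29.4, 23.6 and 21.9 CPM in the non-retrieval libraries. Its groups overlapped throughout, with a log2 fold change of 0.03 (SE 0.10), and non-retrieval had the widest relative spread of any member (15.3%).

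Klf9, Klf13 and Klf16 belong to a branch of the family that binds SIN3A through a shared N-terminal motif, and they were the 3 most abundant members per length. Klf13 (ENSMUSG00000052040; chromosome 7, 63886351 to 63938915, minus strand) had 261, 293, 272 and 274 CPM in the retrieval libraries, against 220.0, 250.4, 219.8 and 219 CPM in the non-retrieval libraries. Non-retrieval replicate 2 stood above the rest of its group but below every retrieval library. The log2 fold change of Klf13 was 0.28 (SE 0.06), a fold of 1.21. Klf9 (ENSMUSG00000033863; chromosome 19, 23141226 to 23166911, plus strand) had 212, 207, 209 and 184 CPM in the retrieval libraries, against 188, 193, 189.9 and 180.5 CPM in the non-retrieval libraries. Retrieval replicate 4 fell within the non-retrieval range, and the log2 fold change was 0.11 (SE 0.06), not past the threshold in any of the 3 tools. Klf16 (ENSMUSG00000035397; chromosome 10, 80567124 to 80577321, minus strand) had 63.3, 71.1, 64.5 and 69.6 CPM in the retrieval libraries, against 57.6, 54.9, 56.1 and 64.8 CPM in the non-retrieval libraries. The overlap came from non-retrieval replicate 4, which lay above retrieval replicates 1 and 3, and the log2 fold change was 0.20 (SE 0.07), past the threshold in limma-voom but not in edgeR or DESeq2.

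Klf15, a glucocorticoid-induced regulator of glucose and amino acid metabolism in liver, muscle and heart, had 21.7, 26.2, 24.2 and 25 CPM in the retrieval libraries, against 18.6, 19.8, 19.2 and 18.8 CPM in the non-retrieval libraries (ENSMUSG00000030087; chromosome 6, 90462576 to 90475238, plus strand). The non-retrieval libraries were nearly alike, with a coefficient of variation of 2.56%, and every retrieval library lay above them. The log2 fold change was 0.34 (SE 0.08), a fold of 1.27.

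The calls of Klf2, Klf4 and Klf10 held with any 1 of the 8 libraries left out, with log2 fold changes of 0.86 to 0.99, 1.57 to 1.74 and 0.80 to 0.92 for the 3 genes in turn. The call of Klf13 ended without retrieval replicate 2, 3 or 4 or non-retrieval replicate 1, 3 or 4, and that of Klf15 without retrieval replicate 2, 3 or 4 or non-retrieval replicate 3 or 4, while their log2 fold changes stayed between 0.24 and 0.32 and between 0.30 and 0.40. Oligodendrocyte markers moved with the groups. With their mean as a covariate, the log2 fold change was 0.15 for Klf13, 0.20 for Klf15 and -0.12 for Klf6, and Klf13 and Klf15 were no longer past the threshold. Klf4 (1.45), Klf2 (0.75) and Klf10 (0.89) remained past it. Klf13 was at 0.18, and past the threshold, once length and GC content of the genes were corrected for by an offset. The part of the marker shift in the values of Klf6, Klf13 and Klf15 was not tested beyond the fit with the oligodendrocyte covariate.

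**Figure D3:**
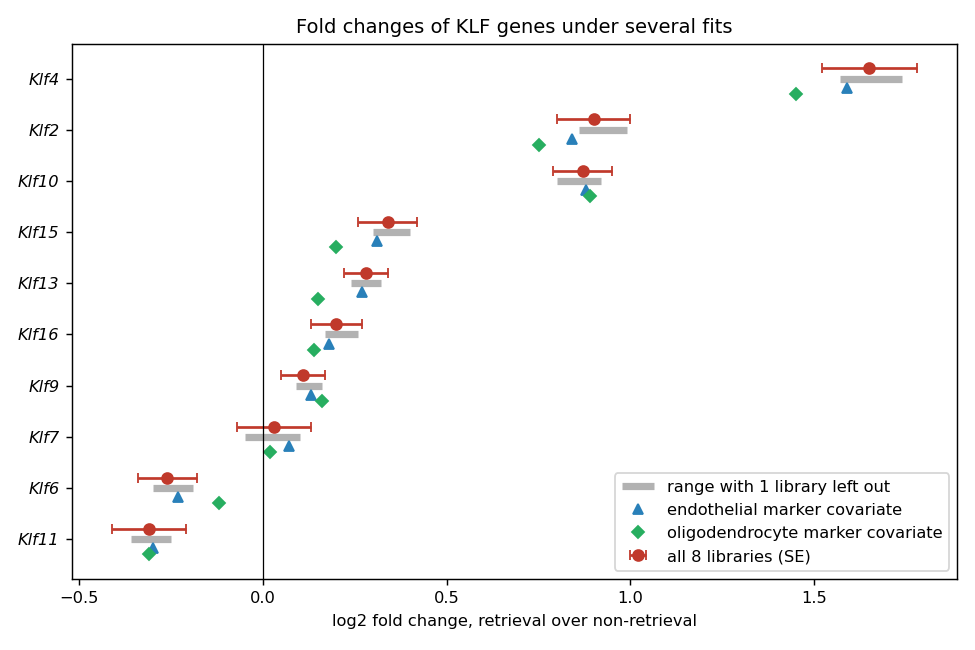
Log2 fold change, retrieval over non-retrieval, of each KLF gene in the fit of all 8 libraries (circle, SE), its range when 1 library is left out (grey bar), and its value with the mean endothelial (triangle) or oligodendrocyte (diamond) marker level as a covariate. Klf4, Klf2 and Klf10 stay at 0.75 or above in every fit drawn, while Klf13 and Klf15 come down to 0.15 and 0.20 with the oligodendrocyte covariate.

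Of the 7 other KLF genes on the list, 5 were tested and none passed in edgeR, DESeq2 or limma-voom, while 2 had an unadjusted edgeR p under 0.05 (median log2 fold change 0.14). Klf12, a repressor, had a log2 fold change of 0.23 (SE 0.09; edgeR adjusted p = 0.163), with 31.1 ± 2.54 CPM in retrieval and 26.6 ± 2.59 CPM in non-retrieval (SD, n = 4 each). Klf5, known from epithelial proliferation, stood at 0.19 (edgeR adjusted p = 0.250), Klf3 at 0.14 (0.390), Klf8 at 0.10 (0.774) and the scarce Klf14 at -0.45 (0.515). Klf1, the erythroid factor, had 1 to 6 reads per library and was not tested. Klf17 had no read in any library, where a count of 0 allows up to 3 counts, or 0.102 CPM in the deepest and 0.12 CPM in the shallowest library.

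The SP factors share the zinc-finger domain and the GC box with the KLFs. Of 9 SP genes, edgeR tested 8 and called none, and DESeq2 gave Sp5 no adjusted p and called none of the rest, while 3 had an unadjusted edgeR p under 0.05, and limma-voom called Sp7 higher. Sp1, the founding member, had 19.0 ± 0.806 CPM in retrieval and 16.6 ± 1.03 CPM in non-retrieval (SD, n = 4 each; log2 fold change 0.20, SE 0.08; edgeR adjusted p = 0.196). Sp3 (0.06), Sp4 (0.14), Sp2 (-0.14), Sp5 (-0.30), Sp7 (0.79), Sp8 (0.01) and Sp9 (0.39) had edgeR adjusted p between 0.195 and 0.992. Sp7 had 9 to 37 reads per library and Sp5 had 5 to 17. Among all 467 tested zf-C2H2 genes, 4.93% were called higher and 1.28% lower.

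Genes of pathways linked to the KLFs were counted by list. The glucocorticoid list mixes receptor genes with genes that steroids induce, so it is not a list of regulators of KLF genes. The glucocorticoid list held 16 genes, of which 9 rose and 7 missed the threshold (56.2%, against 4.57% of all tested genes called in either direction; median log2 fold change 0.40). They included Per1, a circadian repressor (1.07, SE 0.08; edgeR adjusted p = 3.17e-07), the kinase gene Sgk1 (0.92, SE 0.07; edgeR adjusted p = 4.05e-07), the cell-cycle inhibitor gene Cdkn1a (0.85, SE 0.10; edgeR adjusted p = 3.86e-05) and Arl4d (1.08, SE 0.12; edgeR adjusted p = 5.69e-05). Sgk1 had 94.8, 83.5, 97.4 and 85.4 CPM in the retrieval libraries, against 50.7, 47.7, 44.9 and 47.6 CPM in the non-retrieval libraries. Several genes on this list are induced by neuronal activity as well as by steroids. Of the 9, named here after their values were seen, Nfkbia and Errfi1 lost their calls with the oligodendrocyte covariate (edgeR adjusted p 0.183 for Nfkbia and 0.078 for Errfi1), and Nfkbia also without non-retrieval replicate 3 (edgeR adjusted p = 0.0562).

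Of 15 thyroid hormone genes, 2 rose and 13 did not pass (median 0.11). Dio2, which activates thyroid hormone, had 92.8, 82.1, 119 and 111 CPM in the retrieval libraries, against 63.7, 50.7, 74.4 and 63.9 CPM in the non-retrieval libraries (difference of 0.68 on the log2 scale with SE 0.11; edgeR adjusted p = 0.00226). The receptor gene Rxrg (0.44, edgeR adjusted p = 0.135) and Dio3, which inactivates the hormone (0.78, edgeR adjusted p = 0.136), did not pass in edgeR. Limma-voom called Dio3 higher, on 19 to 56 reads per library.

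On the list of 20 TGF-beta pathway genes, edgeR called 1 higher and the other 19 in neither direction. That share is 5.0%, against 4.57% of all tested genes called in either direction. DESeq2 called 3 higher and limma-voom 5, where 4.98% and 6.63% of all tested genes were called higher. A positive log2 fold change was found in 18 (median 0.18), against 47.8% of all tested genes. The gene that rose was Ski, a repressor of SMAD signalling, with 257 ± 13.3 CPM in retrieval and 207 ± 15.6 CPM in non-retrieval (SD, n = 4 each; log2 fold change 0.31, SE 0.07; edgeR adjusted p = 0.0135). Its call ended without retrieval replicate 4 or non-retrieval replicate 4, with edgeR adjusted p of 0.0547 to 0.0581, and with the oligodendrocyte covariate (edgeR adjusted p = 0.374). Its relative Skil (0.33; edgeR adjusted p = 0.0519), the inhibitor gene Smad7 (0.28; edgeR adjusted p = 0.0567) and the ligand gene Tgfb3 (0.36; edgeR adjusted p = 0.0959) were short of the threshold.

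The ERK5 kinase and MEF2 factors, which induce Klf2 and Klf4 in endothelial cells, held no edgeR call among 7 tested genes, while 2 had an unadjusted p under 0.05 and 1 was called higher by DESeq2 and by limma-voom. That gene, the kinase gene Map3k3, had a log2 fold change of 0.24 (SE 0.08; edgeR adjusted p = 0.0839). Mef2d stood at 0.17 (edgeR adjusted p = 0.167), Map2k5 at -0.14 (edgeR adjusted p = 0.364) and Mef2c at -0.12 (edgeR adjusted p = 0.447).

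KLF cofactors made up a list of 18 genes, of which edgeR called 2 higher and 16 in neither direction (median 0.05). That share is 11.1%, against 4.57% of all tested genes called in either direction. DESeq2 and limma-voom each called 4 higher, where 4.98% and 6.63% of all tested genes were called higher. Sap30, a subunit of the SIN3A complex, had 6.10 ± 0.612 CPM in retrieval and 4.12 ± 0.474 CPM in non-retrieval (SD, n = 4 each; log2 fold change 0.57, SE 0.13; edgeR adjusted p = 0.0198). Ep300, the acetyltransferase p300, had 90.8 ± 2.31 CPM in retrieval and 72.3 ± 9.25 CPM in non-retrieval (SD, n = 4 each; 0.33, SE 0.08; edgeR adjusted p = 0.0261). The call of Sap30 ended without retrieval replicate 3 or 4 or non-retrieval replicate 1 or 4, and that of Ep300 without retrieval replicate 3 or 4 or non-retrieval replicate 3 or 4, where edgeR adjusted p began at 0.0580 for Sap30 and 0.0539 for Ep300. Both also ended with the oligodendrocyte covariate (edgeR adjusted p 0.272 for Sap30 and 0.351 for Ep300). Kat2b (0.27; edgeR adjusted p = 0.0617) and Crebbp (0.26; edgeR adjusted p = 0.0631), further acetyltransferase genes, were short of the threshold.

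**Figure D4:**
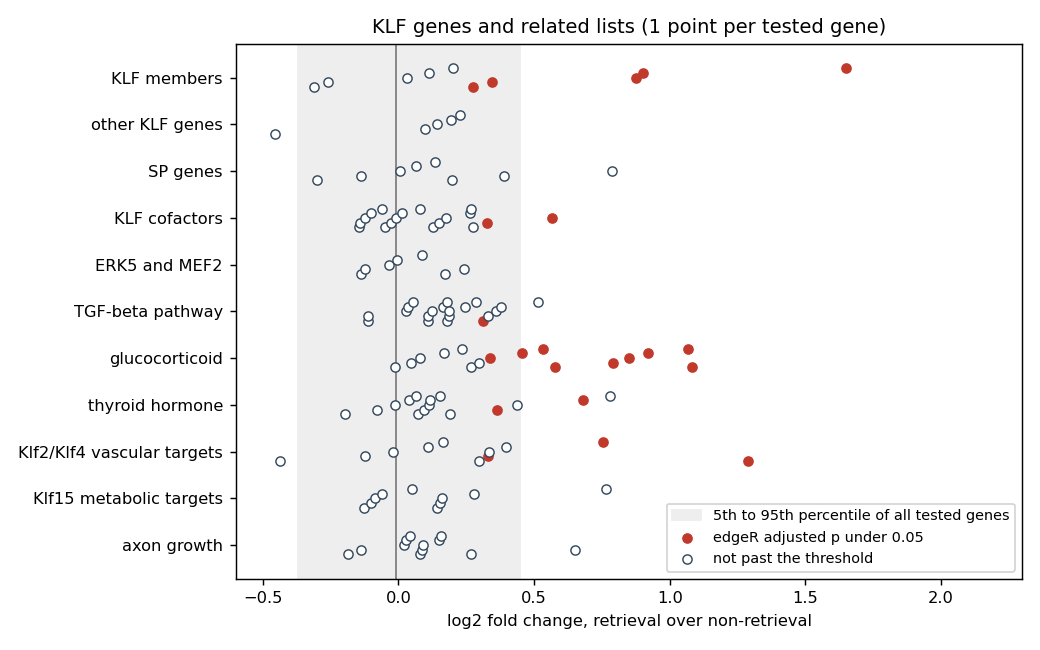
Log2 fold change, retrieval over non-retrieval, of every tested gene of the KLF members and of 10 related lists (1 point per gene; filled points passed the edgeR threshold). The grey band spans the 5th to 95th percentile of all tested genes, from -0.37 to 0.45, and the glucocorticoid list holds 9 of the filled points outside the members.

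Downstream, genes were grouped by the KLF they are linked to in other tissues. Of 16 genes of endothelium and smooth muscle linked to Klf2 or Klf4, 11 were tested, 3 rose and 8 did not pass (median 0.30). The called share was 27.3%, against 4.57% of all tested genes in either direction. Whether Klf2 or Klf4 raises or lowers each gene was not taken into account, so the count and median do not measure their action. Thbs1, an inhibitor of vessel growth, had 1.59 ± 0.204 CPM in retrieval and 0.645 ± 0.0935 CPM in non-retrieval (SD, n = 4 each; log2 fold change 1.29, SE 0.24; edgeR adjusted p = 0.00524). Thbs1 had 13 to 52 reads per library, and its call ended with the oligodendrocyte covariate (edgeR adjusted p = 0.167). Ptgs2, the inducible cyclooxygenase, rose by 0.76 (SE 0.09; edgeR adjusted p = 0.000133), and neurons induce it with activity. Timp3, a metalloproteinase inhibitor gene, rose by 0.33 (SE 0.07; edgeR adjusted p = 0.0116). Its call ended without retrieval replicate 3 or non-retrieval replicate 4, with edgeR adjusted p of 0.0525 to 0.0538, and with the oligodendrocyte covariate (edgeR adjusted p = 0.110). Thbd, which encodes thrombomodulin and is activated by Klf2 in endothelium, stood at 0.33 (edgeR adjusted p = 0.140).

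None of 10 tested genes linked to Klf15 in metabolism passed in edgeR or limma-voom and DESeq2 called none, while 1 had an unadjusted edgeR p under 0.05 (median 0.10). The alanine aminotransferase gene Gpt, which had the smallest p of the list, stood at 0.28 (edgeR adjusted p = 0.108). Acsl1 stood at -0.12, Cpt1a at 0.16 and Slc2a4 at 0.76, with edgeR adjusted p of 0.308 to 0.348. Slc2a4 had only 3 to 18 reads per library, and its SE was 0.41. None of 12 tested axon growth genes passed in edgeR and DESeq2 called none, while 4 had an unadjusted edgeR p under 0.05 (median 0.08). Limma-voom called 2 of them higher, Dusp14 (0.27) and Ntrk2 (0.15), and Nefl lower (-0.18). Their adjusted p in edgeR was 0.0968 for Dusp14, 0.177 for Ntrk2 and 0.120 for Nefl, and Stmn2 stood at -0.14 (0.259).

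The activity genes set a scale for these differences. Fos, the AP-1 subunit used as a marker of active neurons, had 61.8, 55.0, 61.0 and 65.4 CPM in the retrieval libraries, against 11.7, 13.1, 8.66 and 19.1 CPM in the non-retrieval libraries. Its log2 fold change was 2.21, against 1.72 for Egr1, 2.15 for Arc and -0.06 for Npas4, so that Klf4 (1.65) was close to Egr1 in size.

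For each member, the 2 tested genes with the most similar log2 CPM over the 8 libraries (Pearson r) were listed from the 11461 genes that averaged 5 CPM or more. Since group means enter that r, genes that differ between groups resemble each other by that alone. Klf4 was followed by Tle3 (r = 0.997) and Ago1 (0.994), Klf2 by Cbfa2t3 (0.994) and Myh9 (0.992), and Klf10 by Dusp5 (0.996) and Zcchc2 (0.989). Klf15 was followed by Pcdh1 (0.989) and Smtn (0.988), and Klf13 by Setd1b (0.989) and Klhl34 (0.983). Klf16 was followed by Efs (0.975) and Rnf166 (0.958), Klf9 by Drd1 (0.956) and Zfp831 (0.952), and Klf7 by L3mbtl1 (0.962) and Scn8a (0.958). Klf6 was followed by Slc25a16 (0.979) and Eif5 (0.957), and Klf11 by Htr1a (0.948) and Fam161b (0.947). With so many genes searched over 8 libraries, high values of r arise readily, and no test was made. After group means were removed from both genes, r ran from 0.782 (Klf10 with Zcchc2) to 0.967 (Klf4 with Ago1) over these pairs.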

How the data were processed

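RNA from pools of mPFC tissue was sequenced after RNeasy Micro extraction and NEBNext Ultra library preparation, per the labels' protocols. The deposited values are raw counts of reads per gene with Ensembl identifiers and gene lengths, made against GRCm38 with HISAT2 2.0.5 and featureCounts 1.5.0-p3 per the submitters' processing notes. Which annotation release and strand setting went in is not given in the sources used here. Reads of overlapping antisense genes can therefore not be told apart. Each gene model that overlaps Klf7, Klf9 or Klf13 held at most 52 reads over the 8 libraries. With the strand setting unknown, this does not show how many antisense reads there were. Counts were filtered with filterByExpr, which left 16745 genes, scaled with TMM factors and tested with edgeR 4.0.16 (R 4.3.3), by its two-sided quasi-likelihood test, and p-values were adjusted over the whole table (Benjamini-Hochberg). The standard error is the log2 fold change divided by the root of the F statistic, and log2 CPM used a prior count of 2. RPKM were computed from CPM and the deposited gene length. Nothing says that pools shared no cage or day, so p-values measure the spread between pools.

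The members, the 21 lists (238 symbols, 1 not matched) and the alternatives were chosen with earlier results of these data known. The text names all 10 members, the other KLF and SP genes, up to 4 genes with the smallest p of each pathway list, Fos, Egr1, Arc and Npas4, and the 2 genes most similar to each member. A gene that this rule selects is not reported here, though list counts include it. Marker genes other than Slc2a1 were used as sums and counts. Alternatives were RLE and upper-quartile scaling, 2 other filters, DESeq2 1.42.0, limma-voom (limma 3.58.1), the replicate number as a block, marker means as covariates, leaving out each library, other thresholds, and a loess offset (span 0.5) for gene length and GC content, known for 99.9% of tested genes from GENCODE transcripts. The fits were tested on simulated data.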

Additional observations from a re-analysis of the deposited data

Results flagged for a closer look

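Of 28 combinations of gene and group examined (the 10 members and 4 activity genes), 1 held a library far from the rest of its group. Klf13 stood at 250.4 CPM in non-retrieval replicate 2, against 219 to 220.0 CPM in the other 3 non-retrieval libraries, a gap above Dixon's 95% critical value for 4 samples. Chance flags about 1 in 20 such groups. The log2 fold change of Klf13 was 0.32 without that library, the highest value of any fit that left out 1 library, and its call held.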

How the results depend on the processing

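All 10 members kept the sign of their log2 fold change under every scaling, filter and tool tried, and the 5 calls of Klf2, Klf4, Klf10, Klf13 and Klf15 were made in all of these. Klf7, near 0 throughout, changed sign with the length and GC offset (-0.01) and in some fits that left out 1 library. Members called higher numbered 3 with the oligodendrocyte covariate and 3 at an adjusted p under 0.01, and 3 to 6 with 1 library left out. Klf6 was the 1 member called lower under upper-quartile scaling, without a filter, in DESeq2 and limma-voom, with the replicate block, with the length and GC offset and at an adjusted p under 0.1, and 0 to 1 members were called lower with 1 library left out. The number of genes called across the whole table was 766, against 1619 in limma-voom, 1791 with the replicate block, 1510 with the length and GC offset, 136 with the oligodendrocyte covariate, 1173 and 238 at adjusted p under 0.1 and 0.01, and 330 to 1360 with 1 library left out (the fewest when non-retrieval replicate 4 was dropped, the most when retrieval replicate 1 was). Of the calls 80.3% were higher, against 53.6% with the length and GC offset, where 809 were higher and 701 lower, 68.6% in limma-voom and 91.9% with the oligodendrocyte covariate. The 17 pathway-list genes called became 26 without a filter, 30 in limma-voom, 34 with the replicate block, 29 with the length and GC offset, 9 with the oligodendrocyte covariate, and 12 to 27 with 1 library left out. The replicate numbers are not stated to mark shared animals or days. Each library correlated best with its own number in the other group after group means were removed (r of 0.0268 to 0.221), a hint from the data only. With the block, Klf16 joined the higher members. The cause of these differences was not tested. Counting errors were largest for the members with the fewest reads, Klf2, Klf4 and Klf11.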

Other observations

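The members did not rank the libraries of a group alike. Retrieval replicate 1 was the lowest retrieval library for 5 members (Klf2, Klf4, Klf13, Klf15 and Klf16) and the highest for 3 (Klf6, Klf9 and Klf10), and retrieval replicate 3 was the lowest for none. In non-retrieval, replicate 4 was lowest for 5 members (Klf6, Klf7, Klf9, Klf11 and Klf13) and replicate 2 highest for 5 (Klf9, Klf10, Klf11, Klf13 and Klf15). Summed over the 10 members, the level was 713 to 759 CPM in retrieval and 608 to 655 CPM in non-retrieval. Astrocyte markers, which bear on Klf15, held no call among 12 in edgeR or DESeq2, with 2 at an unadjusted p under 0.05 and 2 called higher by limma-voom, and summed to 4915 to 5789 CPM in retrieval and 4706 to 5166 CPM in non-retrieval.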
